A study of Rattus norvegicus with 2 samples.

Results

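The 10 genes Fam43a, Vat1, G0s2, Phox2a, Mgmt, Tmem150a, Hs3st1, Mgst1, Pdlim4 and Anxa7, of 25399 genes in the deposited matrix, were chosen by their higher levels in treated cells with few cell cycle transcripts. That pattern is therefore the reason for their choice and no finding, and its values are given as a description. All 10 were found by symbol in the gene table. The cells were neural stem cells from the cortex of Sprague-Dawley rat embryos (E14.5), grown with FGF2, a growth factor that keeps such cells dividing and undifferentiated. Treated cells were given 30 µM ZD7288, which blocks the HCN class of ion channels, and vehicle cells only the solvent, DMSO at 0.2%, which the treated cells received too. Both cultures were exposed for 48 h, and their medium was changed after 24 h. One sample label writes the compound as ZD2788. Each group was 1 culture and 1 library, so treatment, culture and library cannot be told apart, and no test between groups was possible.

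Neural stem cells divide through DNA synthesis (S phase) and mitosis with gaps between them, and transcripts of the replication and mitotic machinery come and go with these steps. A cell with few such transcripts may be in the first gap, may be resting or may have left the cycle, and transcript counts alone do not separate these states. The 10 genes belong to no single pathway. Mgst1 encodes a membrane-bound glutathione transferase, Vat1 an oxidoreductase-like membrane protein, and Mgmt the enzyme that removes alkyl groups from guanine in DNA. G0s2 encodes an inhibitor of the lipase that starts triglyceride breakdown, Tmem150a a regulator of phosphoinositide synthesis at the plasma membrane, and Anxa7 a calcium-dependent membrane-binding annexin. Hs3st1 encodes an enzyme that sulfates heparan sulfate, Pdlim4 an actin-associated protein with a PDZ and a LIM domain, and Phox2a a homeodomain transcription factor known from noradrenergic neurons. Little is described of the function of Fam43a.

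Because the genes were high in the same cells, the 250 bases before their annotated starts (RefSeq, build GRCr8, all 10 matched) were searched on both strands for core letters of regulatory elements. The core of the ATF4 response element, TGATGNAAT, was in 0 of the 10 windows and in 0.944% of 33469 rat promoter windows. The core of the antioxidant response element bound by NRF2, TGACNNNGC, was in the Vat1 window alone, and in 10.1% of all windows. An E-box, CACGTG, was in the Mgmt window alone, and in 5.59% of all windows. The cell cycle homology region, TTTGAA, was in the Anxa7 window alone, and in 16.2% of all, and the cAMP response element, TGACGTCA, was in none of the 10 and in 1.59% of all. The GC box, GGGCGG, was in 7 of the 10 windows and in 30.5% of all. The windows of Vat1 (chr10:86897412-86897661, minus strand) and Mgmt (chr1:201140582-201140831, plus strand) are shown as examples of a window with a core that the other 9 lack, which holds for that of Anxa7 as well. That of Pdlim4 (chr10:38713660-38713909, minus strand) is shown for its 5 GC boxes, the most among the 10, which in part share letters. Capitals mark the matches on either strand, which describe letters and are not shown to be bound.
Vat1: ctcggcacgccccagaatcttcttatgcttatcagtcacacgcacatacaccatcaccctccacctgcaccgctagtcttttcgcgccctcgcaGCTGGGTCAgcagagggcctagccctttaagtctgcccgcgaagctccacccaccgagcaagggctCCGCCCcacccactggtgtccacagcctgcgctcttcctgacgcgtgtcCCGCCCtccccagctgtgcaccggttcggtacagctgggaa
Mgmt: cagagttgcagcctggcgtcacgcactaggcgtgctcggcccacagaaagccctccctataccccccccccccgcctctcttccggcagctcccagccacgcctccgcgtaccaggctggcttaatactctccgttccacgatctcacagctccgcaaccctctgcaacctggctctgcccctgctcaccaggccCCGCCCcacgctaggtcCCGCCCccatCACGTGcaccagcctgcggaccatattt
Pdlim4: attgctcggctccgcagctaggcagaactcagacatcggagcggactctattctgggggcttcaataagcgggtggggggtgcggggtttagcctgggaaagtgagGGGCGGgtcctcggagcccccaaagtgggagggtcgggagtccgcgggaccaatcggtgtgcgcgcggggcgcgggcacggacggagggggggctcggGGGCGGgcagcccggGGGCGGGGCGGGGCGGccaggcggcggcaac

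Cells were ordered by the share of their transcripts from 8 cell cycle genes, Pcna, Mcm6, Cdk1, Top2a, Mki67, Ccnb1, Ube2c and Birc5, with each captured molecule counted once by its unique molecular identifier (UMI). Shares of 0.0861% and 0.151% divided the kept cells of both libraries together into 3 terciles. From lowest to highest these held 218, 268 and 246 vehicle cells and 1071, 1021 and 1043 treated cells. Median UMIs per cell went from 13948.5 in the lowest to 20558 in the highest tercile of vehicle cells, and from 21086 to 27004 in treated cells. The libraries were not matched within the lowest tercile, where the median share was 0.0622% in vehicle and 0.0441% in treated cells. Levels are summed UMIs per 1000000 UMIs of the same cells (CPM), with exact 95% intervals in parentheses, which here and elsewhere cover counting error only. Of 842 vehicle and 3849 treated barcodes, 3 sequences occurred in both libraries.

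Genes outside the score show how far the lowest tercile lay outside the cycle. In treated cells, 39 of 41 measured G2/M genes and 18 of 31 measured S phase genes, score genes left out, were at least 1.5-fold lower in the lowest than in the highest tercile, as were 6.61% of all measured genes. In vehicle cells 35 of 41 G2/M genes were lower, against 7.42% of all measured genes, but only 4 of 31 S phase genes were lower and 6 were higher. The median log2 ratio of the S phase genes was -0.72 in treated and 0.09 in vehicle cells. In treated cells 2 of the 31 S phase genes were higher. Of all measured genes 1.23% were higher in treated and 1.13% in vehicle cells. The whole S phase list, score genes included, summed to 2185, 2573 and 2172 CPM in the vehicle terciles from lowest to highest. In the treated terciles it summed to 1429, 2915 and 2390 CPM. Thus, set against the highest tercile, the lowest tercile of vehicle cells was low in mitotic transcripts and not in S phase transcripts. The words "outside the cycle" describe the treated cells better than the vehicle cells. Within the lowest tercile, score genes left out, 17 S phase and 9 G2/M genes were lower in treated than in vehicle cells. Of either list 0 were higher. Among all measured genes 9.31% were lower and 14.8% higher.

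For each of the 10 genes the highest level was that of treated cells in the lowest tercile. At a ratio of 1.5 or more, 10 of 10 were higher in the lowest than in the highest tercile of treated cells, where 1.23% of 6082 measured genes were. Between treated and vehicle cells of the lowest tercile 9 of 10 were higher, where 14.8% of measured genes were. Measured means a mean of at least 10 CPM over both libraries, which 7 of the 10 reached, while Vat1, G0s2 and Phox2a lay below. Both conditions held for 45 measured genes, or 0.74%, of which 6 are among the 10. The median log2 ratio between libraries in the lowest tercile was 2.30 over the 10 and 0.09 over all measured genes, and that between the treated terciles was 1.23 and -0.06. Nothing is read from these counts, since the same values chose the genes. Treated cells were also higher for 9 of 10 genes in the whole libraries, which include the lowest tercile. They were higher for 8 in the middle and 8 in the highest tercile. Of measured genes 9.68%, 11.8% and 7.84% were. Tmem150a passed in none of these, Mgmt not in the middle and Vat1 not in the highest tercile. As the genes were chosen as high in treated cells, these counts too are a description.

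**Figure D1:**
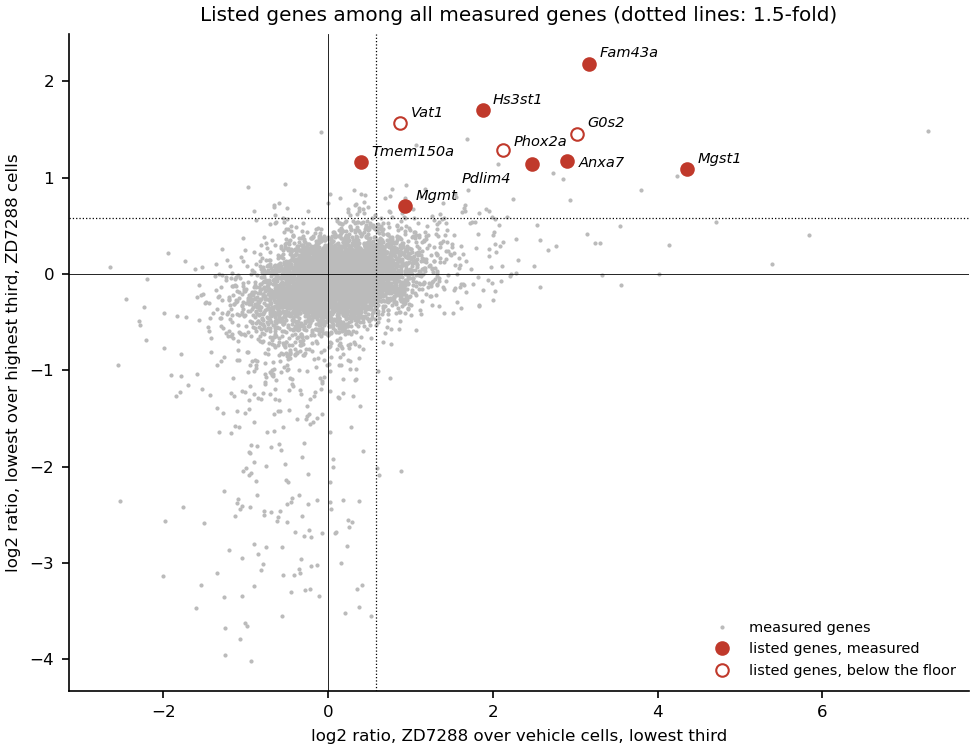
Each grey point is a measured gene, with the log2 ratio of treated to vehicle cells in the lowest tercile of the cell cycle share on the x axis and the log2 ratio of the lowest to the highest tercile of treated cells on the y axis. The 10 genes lie in the upper right, with Tmem150a alone short of the 1.5-fold line on the x axis.

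Among the enzymes, Mgst1 differed most between the libraries. From the lowest to the highest tercile it held 1.39 CPM (0.452 to 3.25), 1.29 CPM (0.559 to 2.55) and 3.25 CPM (1.96 to 5.08) in vehicle cells, resting on 5, 8 and 19 UMIs. In treated cells it held 28.5 CPM (26.3 to 30.8), 14.4 CPM (12.9 to 16) and 13.4 CPM (12.1 to 14.8). Every treated tercile lay above every vehicle tercile, and while treated cells were highest in the lowest tercile, vehicle cells were not. The treated level was 20.5-fold higher (8.74 to 63.3) in the lowest tercile and 4.11-fold higher (2.6 to 6.91) in the highest. With so few vehicle UMIs, the first ratio was 51.1 when full S phase and G2/M lists replaced the score, and 9.58 in cells with at most 6% mitochondrial UMIs.

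Vat1 differed by less. It held 9.46 CPM (6.55 to 13.2), 4.53 CPM (3.01 to 6.55) and 5.65 CPM (3.89 to 7.94) in the vehicle terciles and 17.3 CPM (15.7 to 19.2), 7.01 CPM (5.99 to 8.16) and 5.85 CPM (4.98 to 6.82) in the treated terciles. The intervals of the libraries overlapped in the middle and highest terciles and were apart in the lowest. The library ratio was 1.83 (1.29 to 2.69) in the lowest, 1.55 (1.03 to 2.4) in the middle and 1.03 (0.708 to 1.55) in the highest tercile.

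Mgmt, the DNA repair enzyme, had a profile unlike the rest. Vehicle cells held 19.5 CPM (15.2 to 24.6), 11.8 CPM (9.26 to 14.9) and 11.1 CPM (8.59 to 14.2) from the lowest to the highest tercile, and treated cells 37.3 CPM (34.8 to 40), 16.7 CPM (15.1 to 18.4) and 22.9 CPM (21.1 to 24.7). In treated cells its low point was the middle tercile, with a middle over highest ratio of 0.728 (0.641 to 0.826), the only such ratio among the 10 with an interval wholly below 1. The treated level was 1.92-fold higher (1.5 to 2.48) in the lowest tercile and 2.06-fold higher (1.59 to 2.7) in the highest, so its difference between libraries was about as large in cells full of cycle transcripts. Its lowest over highest ratio in vehicle cells was 1.75 (1.23 to 2.49), and 0.945 in cells with at most 6% mitochondrial UMIs.

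Of the genes of lipids and membranes, G0s2 was scarce in vehicle cells, at 1.95 CPM (0.783 to 4.01), 1.46 CPM (0.666 to 2.76) and 1.88 CPM (0.941 to 3.37) over 7, 9 and 11 UMIs. Treated cells held 15.8 CPM (14.1 to 17.5), 8.39 CPM (7.27 to 9.64) and 5.74 CPM (4.88 to 6.7). The vehicle terciles did not differ beyond counting error, whereas the treated terciles were ordered with intervals apart. The library ratio in the lowest tercile, 8.09 (3.88 to 20.3), was 22.7 in cells with at most 6% mitochondrial UMIs.

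Tmem150a was the gene closest between the libraries. Vehicle terciles held 34.8 CPM (29 to 41.4), 22 CPM (18.5 to 26) and 17 CPM (13.8 to 20.6), and treated terciles 45.9 CPM (43.1 to 48.8), 23.3 CPM (21.4 to 25.3) and 20.5 CPM (18.8 to 22.3). The lowest tercile was above the highest by a ratio of 2.05 (1.56 to 2.7) in vehicle and 2.24 (2.02 to 2.49) in treated cells. Its library ratio in the lowest tercile was 1.32 (1.1 to 1.6), below the 1.5-fold rule, so Tmem150a marks cells low in the score in either library more than it marks treatment.

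Anxa7, the annexin, stood at 3.34 CPM (1.73 to 5.83), 5.18 CPM (3.54 to 7.31) and 4.45 CPM (2.91 to 6.53) in the vehicle terciles and at 24.8 CPM (22.8 to 27), 13.5 CPM (12.1 to 15.1) and 11 CPM (9.81 to 12.3) in the treated terciles. Every treated tercile lay above every vehicle tercile, and the vehicle intervals overlapped each other. The library ratio of the lowest tercile was 7.44 (4.22 to 14.49) over 12 vehicle UMIs. It was 4.39 in cells with at most 6% mitochondrial UMIs and 12.4 after every cell was thinned to 5000 UMIs.

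Pdlim4, the actin-associated gene whose window is printed above, was level across vehicle cells, at 8.07 CPM (5.4 to 11.6), 8.9 CPM (6.7 to 11.6) and 8.39 CPM (6.21 to 11.1). In treated cells it held 44.9 CPM (42.1 to 47.8), 27.5 CPM (25.4 to 29.7) and 20.4 CPM (18.7 to 22.1), ordered with intervals apart. Hs3st1, of heparan sulfate synthesis, was highest in the lowest tercile of both libraries. It held 8.07 CPM (5.4 to 11.6), 3.88 CPM (2.49 to 5.78) and 3.6 CPM (2.23 to 5.5) in vehicle and 29.6 CPM (27.4 to 32), 16.5 CPM (14.9 to 18.2) and 9.1 CPM (8.01 to 10.3) in treated cells. Between libraries in the lowest tercile the ratio was 5.56 (3.85 to 8.35) for Pdlim4 and 3.67 (2.53 to 5.52) for Hs3st1, and the treated terciles of both genes lay apart from one another.

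Fam43a had the steepest gradient among the 10 in treated cells. Its treated levels were 42.5 CPM (39.8 to 45.3), 15.2 CPM (13.7 to 16.9) and 9.35 CPM (8.24 to 10.6), a lowest over highest ratio of 4.54 (3.95 to 5.23). Vehicle cells held 4.73 CPM (2.76 to 7.57), 3.72 CPM (2.36 to 5.58) and 1.88 CPM (0.941 to 3.37), a ratio of 2.51 (1.11 to 5.93) over 17 and 11 UMIs. Treated cells were thus above vehicle cells in every tercile, with a ratio of 8.98 (5.58 to 15.5) in the lowest.

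Phox2a, the transcription factor, came to 4.45 CPM (2.54 to 7.23), 0.971 CPM (0.356 to 2.11) and 2.57 CPM (1.44 to 4.24) in the vehicle terciles, over 16, 6 and 15 UMIs, with no steady order. The treated terciles held 19.4 CPM (17.6 to 21.4), 8.98 CPM (7.82 to 10.3) and 7.98 CPM (6.96 to 9.1), of which the lowest stood apart from the rest. The library ratio of the lowest tercile was 4.37 (2.66 to 7.71), and 6.65 (3.99 to 12) in cells low in both the S phase and the G2/M genes of the score. Of 12 matched noradrenergic or neural crest genes 6 had 0 UMIs in both libraries, among them Dbh, Th, Hand2, Slc6a2 and Isl1, named after their values were seen. Such a count allows up to 0.192 CPM in the vehicle and 0.0407 CPM in the treated library. From lowest to highest tercile, all 12 summed to 13.4, 18.3 and 24.3 CPM in vehicle and 17.7, 22.1 and 31.3 CPM in treated cells. In treated cells that sum was thus lowest in the tercile where Phox2a was highest. Only 1 of the 12 genes was measured, at a log2 ratio of -0.87 between the lowest and highest tercile of treated cells. The sum may largely follow that gene, so nothing is read from its direction.

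**Figure D2:**
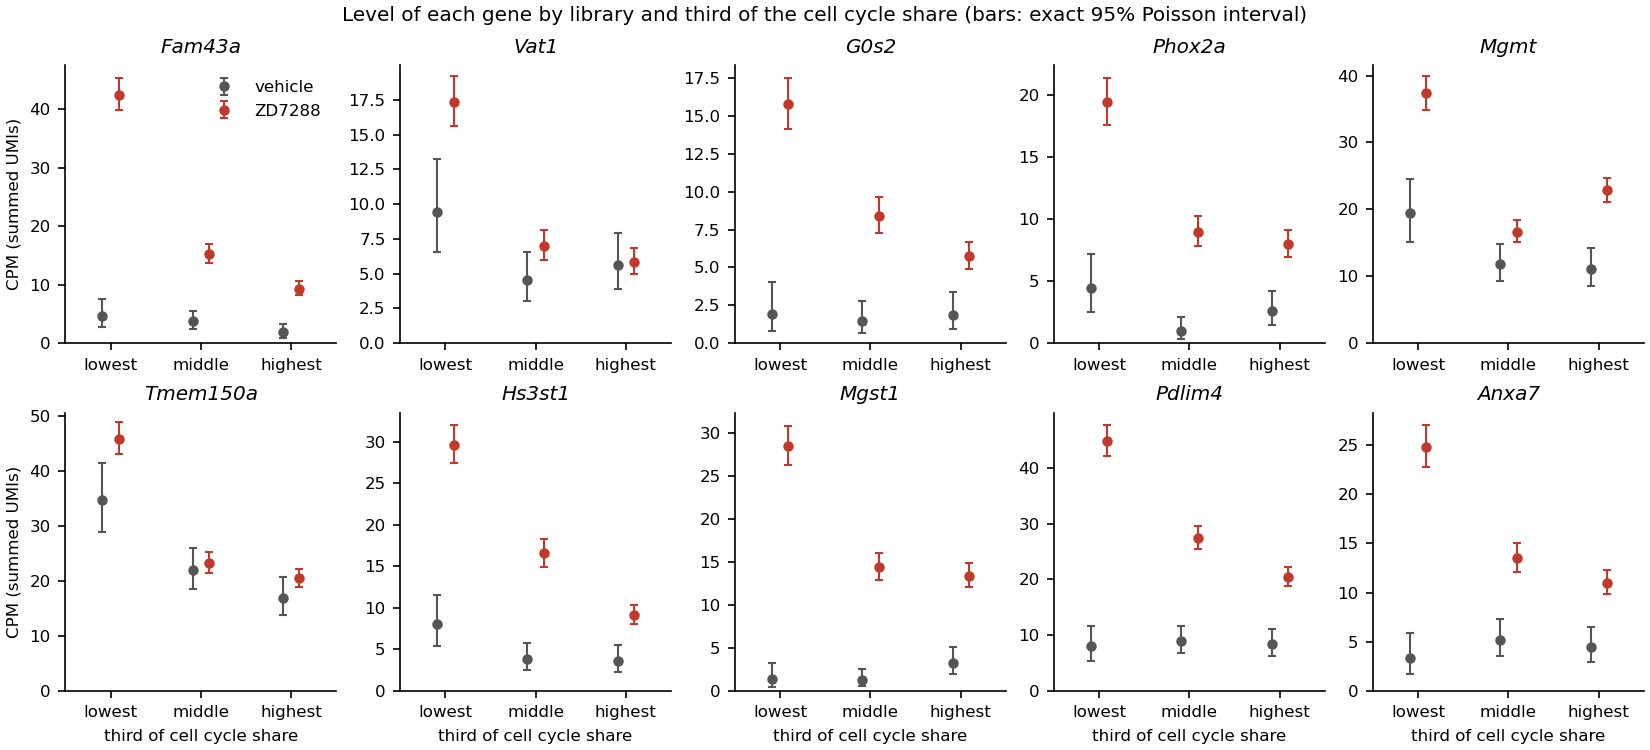
Each panel gives the CPM of 1 gene in the lowest, middle and highest tercile of the cell cycle share, for vehicle and treated cells, with exact 95% Poisson intervals on an axis from 0. Treated cells of the lowest tercile are the highest point in all 10 panels. The vehicle intervals all overlap one another for Pdlim4, G0s2, Anxa7, Fam43a, Mgst1 and Hs3st1.

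In vehicle cells the gradient was seen for some of the 10 genes. There 6 of 10 were at least 1.5-fold higher in the lowest than in the highest tercile, and 1, Mgst1, was lower, at 0.427 (0.125 to 1.18), against 1.13% and 7.42% of measured genes. Of the 7 of the 10 that were measured, 4 were higher, and with a floor of 2 CPM the share of measured genes higher was 4.11%. For Fam43a, Vat1, Mgmt, Tmem150a and Hs3st1 the interval of that ratio lay above 1. Phox2a passed the rule at 1.73 (0.802 to 3.76), with an interval that held 1, and its ratio was 4.11 in cells with at most 6% mitochondrial UMIs. G0s2 and Pdlim4 stood at 1.03 (0.34 to 2.92) and 0.961 (0.586 to 1.55). Their ratios were 0.294 for G0s2 in cells with at most 6% mitochondrial UMIs and 2.1 for Pdlim4 after thinning, so neither direction is firm in vehicle cells.

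The lowest over highest ratio of treated cells was also divided by that of vehicle cells. The treated levels that chose the genes are in its numerator, so the result is a description and supports nothing. Its interval lay above 1 for 4 genes, at 4.97 (1.78 to 17.2) for Mgst1, 3.0 (1.44 to 6.64) for Anxa7, 2.29 (1.4 to 3.8) for Pdlim4 and 1.77 (1.02 to 3.06) for Vat1. The other 6 genes had intervals that held 1, among them Mgmt at 0.932 (0.644 to 1.35) and Tmem150a at 1.09 (0.813 to 1.46). For these a difference within the interval was not detectable at the depth of the vehicle library.

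Across deciles of the cell cycle share, most of the gradient lay at its low end. Summed over the 10 genes, treated cells held 438 CPM in decile 1, the lowest, 303 CPM in decile 2, 186 CPM in decile 3 and 122 CPM in decile 10. Vehicle cells held 156, 88.3, 88 and 57.8 CPM in the same deciles. Between deciles 1 and 10 of treated cells Fam43a went from 63.8 to 7.85 CPM and Hs3st1 from 39.3 to 6.42 CPM. Mgmt went from 57.2 CPM in decile 1 to its lowest level, 15 CPM, in decile 6 and stood at 24.9 CPM in decile 9. Pdlim4 went from 68.9 to 20.3 CPM by decile 3 and stood at 28.6 CPM in decile 6. Phox2a held 12, 5.11, 6.5 and 10.2 CPM in deciles 6 to 9, so the levels of single genes did not all decline steadily.

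**Figure D3:**
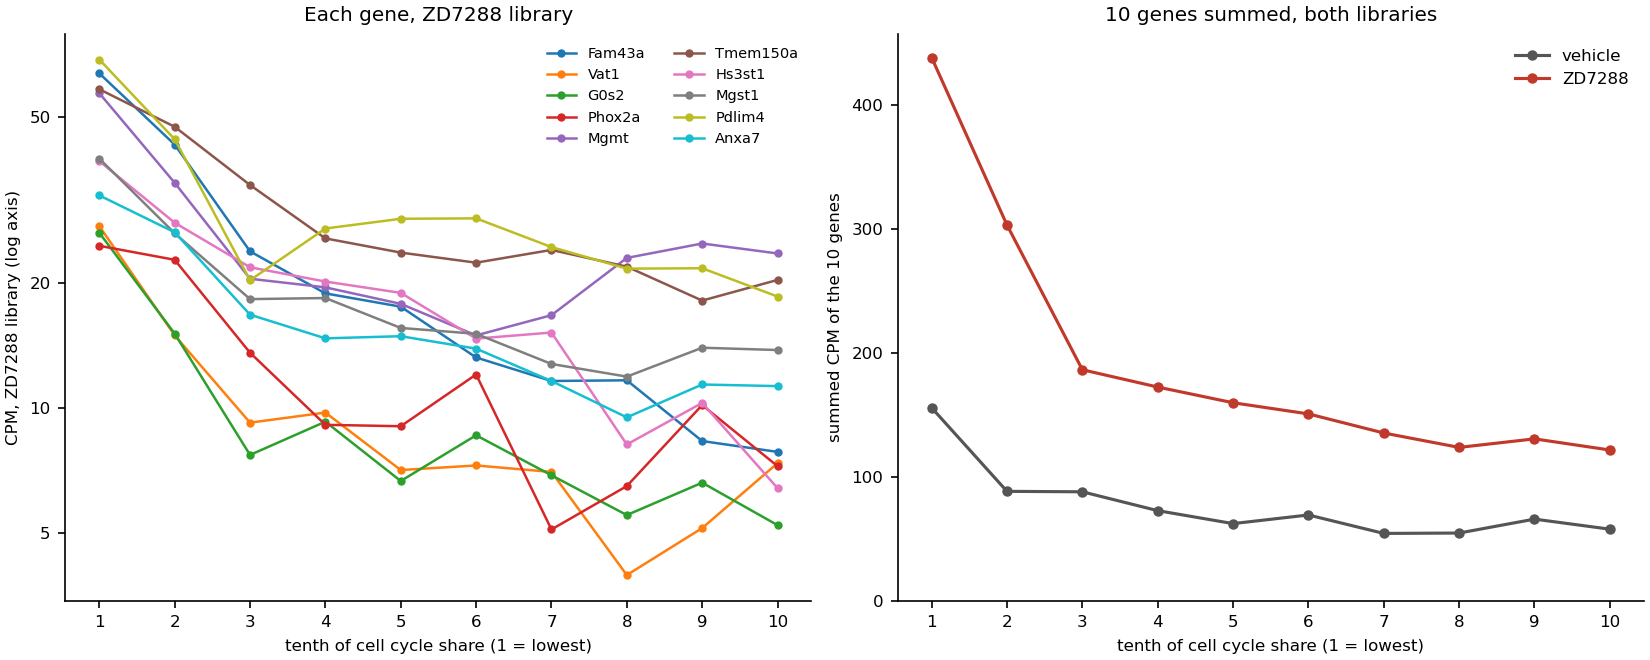
Left, CPM of each of the 10 genes in treated cells on a log axis across deciles of the cell cycle share, 1 being the lowest. Right, the summed CPM of the 10 genes in both libraries on a linear axis from 0, with the treated library above the vehicle library in every decile.

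The score was then divided into its S phase part, Pcna and Mcm6, and its G2/M part, the other 6 genes, and cells were classed by whether they reached the upper tercile of either. Summed over the 10 genes, the 1208 treated cells low in both parts held 279 CPM, and the 911 cells high in the S phase part alone 154 CPM. The 873 cells high in the G2/M part alone held 129.9 CPM, and the 143 cells high in both 113 CPM. In vehicle cells the same classes held 81, 73, 58.9 and 53.5 CPM, the last over 39 cells, the same order of sums over a narrower range. Gene by gene that order was not firm. Between vehicle cells low in both parts and those high in the S phase part, 2 of 10 genes were at least 1.5-fold higher. Mgst1 was the 1 lower, at 0.55 (0.153 to 1.91), and 0 of the 10 intervals lay above 1. Of measured genes 2.09% were higher and 3.73% lower. In treated cells 9 of 10 genes were at least 1.5-fold higher in cells low in both parts than in those high in the S phase part, where 0.756% of measured genes were. Against cells high in the G2/M part 10 of 10 were, where 0.921% of measured genes were. The gene that did not pass the first comparison was Hs3st1, at 1.31 (1.15 to 1.48).

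Hs3st1 also separated the phases most among the 10. It stood at 20.1 CPM in treated cells high in the S phase part and at 7.61 CPM in those high in the G2/M part, a ratio of 2.65 (2.22 to 3.16). Mgmt lay the other way, at 17.5 and 22.1 CPM, a ratio of 0.794 (0.692 to 0.909). In this comparison 2 of the 10 genes, Hs3st1 and G0s2, were at least 1.5-fold higher, as were 2.33% of measured genes. Of the 7 measured, 1 passed, since G0s2 lies below the floor of 10 CPM. Between the libraries, 9 of 10 genes were higher in treated cells low in both parts, against 15.2% of measured genes, with Tmem150a again below the rule at 1.4 (1.18 to 1.66). In these cells 15 of 31 S phase genes were lower in the treated library, against 9.7% of measured genes, so the libraries were not matched here either.

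The genes were next compared with other readouts of treated cells. These did not enter the rule, though genes and lists were chosen with earlier results known. NRF2 is the transcription factor of the oxidative stress response, and 22 of its known targets gave a share per cell, most of it from the ferritin genes Fth1 and Ftl1 and from Txn1 and Prdx1. Between the upper and lower terciles of that share, 9 of 10 genes, and 6 of the 7 measured, were at least 1.5-fold higher, where 1.27% of measured genes were. Fam43a stood at 9.3 CPM in the lower and 37.2 CPM in the upper tercile, a ratio of 4.0 (3.45 to 4.65). Mgst1 followed at 3.1 (2.68 to 3.61) and G0s2 at 2.81 (2.3 to 3.44), while Mgmt did not pass, at 1.08 (0.968 to 1.21). Cells of the upper tercile also had less of the cell cycle score, with a median share of 0.0855% against 0.142%. Within the lowest tercile of the cell cycle share the count was 8 of 10, and 5 of the 7 measured, against 2.09% of measured genes. The highest ratios there were those of Fam43a at 3.83 (3.15 to 4.68), Mgst1 at 3.6 (2.85 to 4.59) and Vat1 at 3.3 (2.47 to 4.45). The score still differed there, at median shares of 0.0317% and 0.0559%, and its part in the result was not tested.

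ATF4 is the transcription factor of the integrated stress response, and its list of targets summed to 6370.2 CPM in treated and 1823 CPM in vehicle cells. Along this readout the 10 genes did not all go the same way. Between the upper and lower terciles of the list's share in treated cells, 4 genes were at least 1.5-fold higher, against 2.47% of measured genes. These were G0s2 at 3.37 (2.72 to 4.21), Phox2a at 2.62 (2.17 to 3.19), Fam43a at 2.37 (2.06 to 2.73) and Hs3st1 at 1.61 (1.4 to 1.86). Of the 7 measured genes 2 passed, since G0s2 and Phox2a lie below the floor of 10 CPM. Mgmt was the 1 gene lower, at 0.551 (0.491 to 0.618), against 1.33% of measured genes. Pdlim4 had a ratio of 0.871 (0.785 to 0.966) and Vat1 one of 1.03 (0.857 to 1.23). Short of the rule but above 1 were Anxa7 at 1.46 (1.27 to 1.69), Mgst1 at 1.24 (1.08 to 1.42) and Tmem150a at 1.19 (1.07 to 1.33). In all, 7 of 10 intervals lay above 1. The median cell cycle share was 0.125% in the upper and 0.118% in the lower tercile. Within the lowest cell cycle tercile 5 genes were higher, 3 of them measured, and 1 was lower, against 4.19% and 2.99% of measured genes. The ratios ran from G0s2 at 4.25 (3.09 to 5.95) to Mgmt at 0.394 (0.327 to 0.473). There the median cell cycle shares were 0.037% in the upper and 0.0501% in the lower tercile of the list's share, and the part of this in the result was not tested.

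Cdkn1a, which encodes the cell cycle inhibitor p21, divided the genes in another way. Its own level was 74.3, 53.7 and 48.3 CPM in the vehicle terciles and 226, 179 and 186 CPM in the treated terciles. Between the upper and lower terciles of the Cdkn1a share in treated cells, Mgmt stood at 44.7 and 14.3 CPM, a ratio of 3.12 (2.75 to 3.56). Fam43a at 1.9 (1.65 to 2.18) and Pdlim4 at 1.61 (1.44 to 1.79) also passed, which made 3 of 10, against 0.296% of measured genes. The intervals of G0s2, Phox2a, Hs3st1 and Anxa7 held 1. Within the lowest cell cycle tercile the same 3 genes passed, Mgmt at 3.62 (2.95 to 4.48), Pdlim4 at 1.98 (1.67 to 2.37) and Fam43a at 1.7 (1.42 to 2.04), against 1.1% of measured genes. The median cell cycle share there was 0.0385% in the upper and 0.0496% in the lower Cdkn1a tercile, whose part was not tested either. Mgmt thus had the highest ratio of the 10 for Cdkn1a and the lowest for the ATF4 targets.

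**Figure D4:**
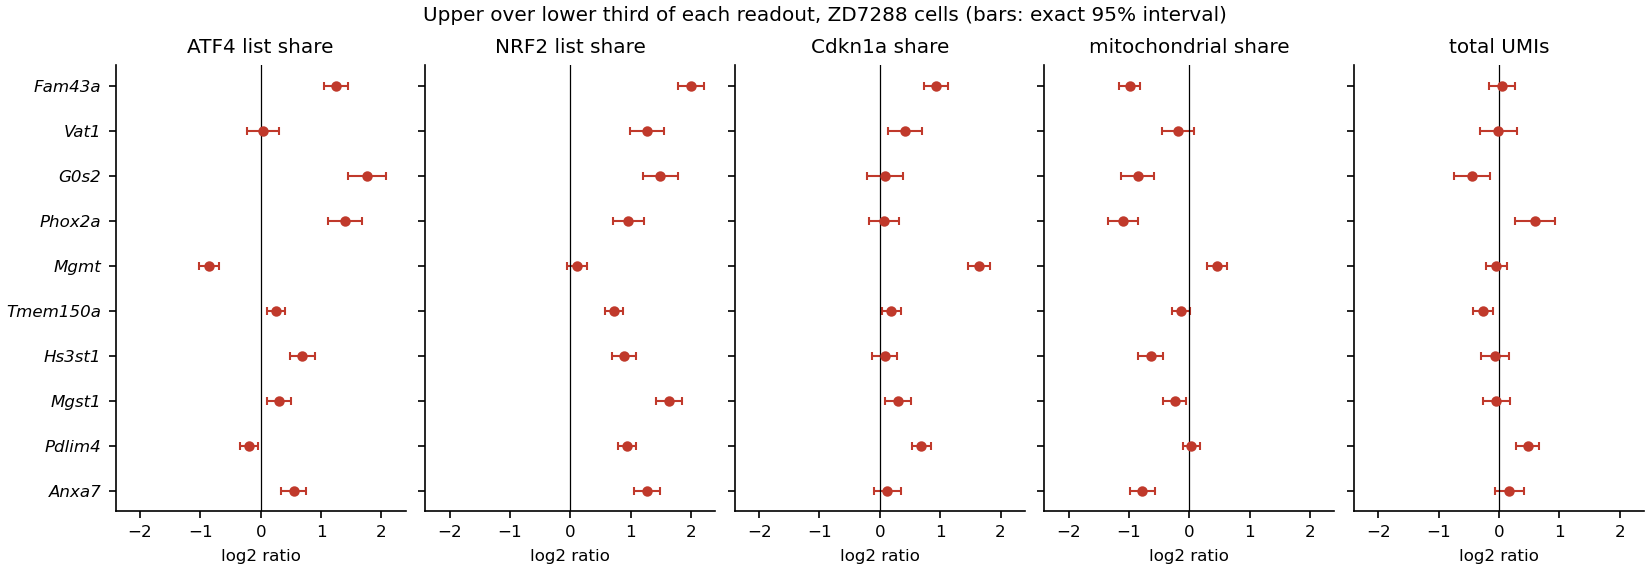
For treated cells, each point is the log2 ratio of a gene's CPM in the upper over the lower tercile of the readout named above the panel, with exact 95% intervals. In the NRF2 panel 9 genes lie clear of 0, while Mgmt is the lowest in the ATF4 panel and the highest in the Cdkn1a panel.

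Depth and mitochondrial share were followed as signs of cell quality. Between the upper and lower terciles of total UMIs 1 of 10 genes passed, Phox2a at 1.51 (1.21 to 1.9), against 1.92% of measured genes. Phox2a lies below the floor of 10 CPM, and of the 7 measured genes 0 passed. Between the upper and lower terciles of the mitochondrial share 5 genes were at least 1.5-fold lower, against 1.53% of measured genes. These were Phox2a at 0.467 (0.393 to 0.554), Fam43a at 0.503 (0.444 to 0.57), G0s2, Anxa7 and Hs3st1, while Mgmt stood at 1.37 (1.22 to 1.54). Among them Phox2a and G0s2 were not measured. The lowest over highest cell cycle ratio was also taken within terciles of total UMIs and of the ATF4, Cdkn1a and mitochondrial shares, but not of the NRF2 share. As this ratio in treated cells chose the genes, its counts are a description.

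Within the shallowest, middle and deepest terciles of treated cells by total UMIs, 8, 10 and 10 of the 10 genes were at least 1.5-fold higher in the lowest than in the highest cell cycle tercile, against 2.24%, 2.65% and 2.22% of measured genes. In the shallowest cells Pdlim4 stood at 1.04 (0.751 to 1.46) and Mgmt at 1.45 (1.08 to 1.97), and in the deepest cells Pdlim4 stood at 3.34 (2.92 to 3.83). Within terciles of the ATF4 share the counts were 10, 9 and 9, against 1.89%, 1.59% and 1.86%. Within terciles of the Cdkn1a share they were 9, 9 and 10, against 1.66%, 1.35% and 2.1%. Within terciles of the mitochondrial share they were 9, 9 and 10, against 1.66%, 1.4% and 2.22%. The gene below the rule in these last comparisons was Mgmt each time.

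Counted per cell, UMIs of the 10 genes were few. With every cell thinned to 5000 UMIs, 22 vehicle and 297 treated cells were too shallow and dropped. In the lowest tercile the mean number of UMIs of the 10 genes was then 1.51 in treated (SD over 959 cells 1.72) and 0.522 in vehicle cells (SD over 207 cells 0.864). UMIs of 3 or more of the genes were found in 12.1% (10.1 to 14.3) of treated cells of that tercile and 1.45% (0.30 to 4.18) of vehicle ones, and in 2.18% (1.34 to 3.34) of treated cells of the highest. No UMI of any of them was found in 31.4% (28.5 to 34.4) of treated cells of the lowest tercile at this depth.

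Fam43a UMIs were found in 16.8% (14.48 to 19.3) of thinned treated cells of the lowest tercile, against 4.36% (3.13 to 5.89) in the highest and 2.9% (1.07 to 6.2) of vehicle cells of the lowest. Without thinning these shares were 36.5%, 18.2% and 6.88%. Tmem150a was the most often seen of the 10, in 20.5% (18 to 23.2) of treated cells of the lowest tercile and 15.5% (10.8 to 21.1) of vehicle ones, or 51.9% and 36.7% without thinning. Shares of Mgst1 were 11.3% (9.33 to 13.4) and 0.966% (0.117 to 3.45), or 28.7% and 2.29% without thinning. The cultures offered no cell type known to lack the genes, so the part of free RNA in these shares was not tested.

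UMIs of the genes tended to fall in the same cells. In thinned treated cells of the lowest tercile, cells with a UMI of a given gene held more UMIs of the other 9 than cells without it, for each of the 10 genes. The ratio of the means was 1.58 (1.32 to 1.88) for Vat1, 1.56 (1.36 to 1.79) for Pdlim4 and 1.54 (1.33 to 1.79) for Mgst1, the highest, and 1.22 (1.05 to 1.42) for Mgmt, the lowest. Cells with the gene also held fewer UMIs of the score, for example 1.77 against 2.36 per cell for Mgmt and 1.92 against 2.34 for Pdlim4, and the part of that in the sharing was not tested. All 10 genes were chosen as high at the low end of that score, so some sharing was built in. Other genes were not compared in this way, and nothing is read from the count.

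Among relatives of the 10 genes from lists of families and pathways, none of the measured ones was 1.5-fold higher in the lowest than in the highest tercile of treated cells, where 1.23% of all measured genes were. These lists held at most 10 measured genes each, so a count of 0 is near that share and nothing is read from it. Some relatives below the floor of 10 CPM did pass, among them Anxa5, Anxa2 and Dgat2, the last an enzyme of triglyceride synthesis, at 1.56 (1.26 to 1.94). These were named after their values were seen, and 7 of the 10 genes reach the same floor. Among 10 measured glutathione transferase and peroxidase genes, 3 were higher and 2 lower in treated than in vehicle cells of the lowest tercile, where 14.8% and 9.31% of measured genes were. Gstp1 stood at 5.82 (5.48 to 6.19), Gstt2 at 3.31 (2.23 to 5.11), Gsta4 at 2.12 (1.63 to 2.82) and Gstk1 at 0.402 (0.311 to 0.525). Their lowest over highest ratios in treated cells were 1.43 (1.4 to 1.45), 1.44 (1.27 to 1.64), 1.17 (1.06 to 1.3) and 0.73 (0.612 to 0.868), below the 2.13 (1.87 to 2.43) of Mgst1. Mgst3, a closer relative below 10 CPM that was named after its values were seen, had a library ratio of 0.352 (0.256 to 0.489) over 58 vehicle and 125 treated UMIs, opposite to Mgst1.

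Of the annexins, Anxa6 and Anxa11 were measured, at library ratios of 1.17 (1.09 to 1.26) and 1.92 (1.56 to 2.4) in the lowest tercile. Anxa5 and Anxa2, both below the floor, stood at 8.08 (3.67 to 22.2) over 6 vehicle and 297 treated UMIs, and at 6.15 (2.05 to 30.3) over 3 and 113. Between the lowest and highest treated terciles they stood at 1.83 (1.53 to 2.2) and 3.16 (2.22 to 4.57), so Anxa7 was not alone among annexins in being higher in the lowest tercile. Of the PDZ and LIM domain genes, Pdlim5 and Pdlim7 were measured, at 2.19 (1.46 to 3.43) and 1.74 (1.27 to 2.42). In the same treated comparison Pdlim5 stood at 0.75 (0.653 to 0.86) and Anxa11 at 1.19 (1.1 to 1.3), where Pdlim4 stood at 2.2 (1.98 to 2.44) and Anxa7 at 2.26 (1.96 to 2.6). Of 7 measured heparan sulfate genes 2 were higher, Glce at 2.49 (1.75 to 3.65) and Ext2 at 1.7 (1.39 to 2.1), and 1 was lower, Hs6st1 at 0.548 (0.413 to 0.737), against 14.8% and 9.31% of measured genes. Between the treated terciles Glce stood at 1.33 (1.17 to 1.51), and Hs3st1 at 3.26 (2.81 to 3.78).

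Among 4 measured lipid droplet genes Abhd5, which encodes the co-activator of the lipase that G0s2 inhibits, was the 1 called higher, at 2.1 (1.41 to 3.27), against 14.8% of measured genes. The gene of that lipase, Pnpla2, was listed with 0 UMIs in both libraries. Of the 3 measured genes of the list around Tmem150a and its lipid kinase none passed, with Dram2 at 1.49 (1.26 to 1.79). Cryz, a relative of Vat1, stood at 1.43 (1.03 to 2.01), and Fam43b had 0 UMIs in both libraries.

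Other genes were ranked by how closely their levels over 20 groups, the deciles of the cell cycle share in each library, followed the mean profile of the 10. These groups share libraries and depth, so the Pearson correlations are descriptive. The closest of 4347 genes was Schip1, at 0.96, followed by Mllt11, Mea1, Cd63, Cbln4, Rab6a, Nsg2, Itm2b, Uchl1, S100a10, Rps27a and Sqstm1, the last at 0.93. Their lowest over highest ratios in treated cells, 1.15 to 1.85, were below those of 9 of the 10 genes. Mllt11 stood at 128 CPM in the lowest and 69.4 CPM in the highest tercile of treated cells, and at 56.5 CPM in the lowest tercile of vehicle cells. Sqstm1, which encodes an autophagy receptor, stood at 141, 84.5 and 53.7 CPM. Among the 10, Fam43a followed the other 9 most closely over the 20 groups, at 0.96, and Tmem150a least, at 0.55. Over the deciles of treated cells alone Mgst1 was closest, at 0.99, and Mgmt least, at 0.76, while Tmem150a stood at 0.95.

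Markers of cell types were followed in the same groups. Markers of neural stem cells summed to 7602 CPM in the lowest tercile of vehicle cells and 7635 CPM in that of treated cells. Of 8 measured among them 1 was higher in treated cells of that tercile, Slc1a3 at 1.69 (1.56 to 1.84), and 2 were lower, Hes1 at 0.444 (0.353 to 0.562) and Sox9 at 0.568 (0.513 to 0.629). Oligodendrocyte precursor markers summed to 2279 CPM in the lowest vehicle and 1278 CPM in the lowest treated tercile, and 2 of 3 measured were lower, Olig1 at 0.544 (0.528 to 0.559) and Cnp at 0.457 (0.415 to 0.505). Across the treated terciles that sum went from 1278 to 1219 CPM, and its part in the library ratios was not tested. The 9 mesenchymal or pericyte markers, 0 of them measured, summed to 28.9, 13.6 and 8.73 CPM in the treated terciles from lowest to highest, and to 0.278, 0.324 and 1.37 CPM in the vehicle terciles. In treated cells they thus moved in the same direction as the 10 genes. In vehicle cells they did not, as the 10 genes summed to 95.7, 63.8 and 59.8 CPM there. Without the 60 treated and 1 vehicle cells that held 3 or more of their UMIs, 9 of 10 genes were higher between the libraries and 10 of 10 between the treated terciles, the same counts as with them. Of 4 endothelial markers none was measured and Cdh5 and Cldn5 were at 0 UMIs in both libraries. The list summed to 0.59, 0.334 and 0.253 CPM in the treated terciles, from 24 treated UMIs of Kdr and 4 of Flt1, and in vehicle cells to 0.162 CPM in the middle tercile and 0 in the others. Of 5 microglial or macrophage markers none was measured, Cx3cr1, C1qa and Ptprc were at 0 UMIs in both libraries, and the list summed to 0.0271 CPM in treated and 0 in vehicle cells. The 5 astrocyte markers, 1 of them measured, summed to 39.5, 44.2 and 54.1 CPM in the treated terciles from lowest to highest. The part of these cell types in the results was not tested.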

How the data were processed

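The authors deposited one matrix of raw UMI counts for 4691 cell barcodes of both libraries. Cell Ranger made the counts, per the submitters' processing notes, in version 3.0.2 per the file headers, from 10x libraries per the labels. The genome build, the aligner settings and the annotation were not given in the sources used here. Each barcode's library came from the number after its hyphen, matched to the number that starts each sample title, and every ratio's direction rests on it.

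Cells with at least 1000 UMIs, 500 genes and at most 10% mitochondrial UMIs were kept, 732 vehicle and 3135 treated cells with 15611454 and 73681950 UMIs in all. No doublet caller was run, and an alternative dropped the deepest 5% of cells. UMIs were summed per group of cells. Ratios carry exact Clopper-Pearson intervals on the share of both summed counts, levels exact Poisson intervals, shares of cells Clopper-Pearson intervals, and ratios of ratios the exact conditional interval of the odds ratio. A count of 0 was taken to allow 3 counts. Having 1 library in each group allowed neither tests nor p-values. Calls used a 1.5-fold rule over all measured genes. Counts of the 10 genes include Vat1, G0s2 and Phox2a, which were not measured, whereas the shares set beside them cover measured genes only. Of 363 list symbols 349 were matched. Named genes were the 10 chosen genes, up to 4 measured genes per list with the largest library ratio in either direction, and the 12 most alike genes with at least 20 CPM, and some others named after their values were seen. Values of some genes under this rule were left out. The 10 genes and the lists were chosen with earlier results of these data known. Alternatives covered the terciles, the score, cell filters, depth, scaling, the floor and the size rule. Scripts ran in Python 3.11.15 with numpy 2.4.6 and scipy 1.17.1, and the ratio script was tested on simulated data.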

Additional observations from a re-analysis of the deposited data

Results flagged for a closer look

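Barcodes above the mitochondrial limit were left out of the comparisons. Among them, too, the summed level of the 10 genes was higher in the treated library, in which the genes were chosen as high. It was 183 CPM (164 to 203) in 546 treated barcodes, over 356 UMIs of these genes, and 81.2 CPM (53.1 to 119) in 104 vehicle barcodes, over 26 UMIs. Single genes were not compared there. Among kept cells this level was 188 CPM with treatment and 69.6 CPM without.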

How the results depend on the processing

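Counts of the 10 genes past the 1.5-fold rule were recomputed under 53 combinations of count and alternative, and 51 stayed within 1.5 times the reported count. Under a 2-fold rule the count of genes higher in the lowest than in the highest tercile of vehicle cells was 3 in place of 6, and that between the NRF2 terciles of treated cells was 5 in place of 9. Of 470 recomputed ratios of single genes, 452 stayed inside the reported interval, 17 moved outside it and 1 changed sign. That one was the log2 ratio of Mgmt between the lowest and highest tercile of vehicle cells, 0.81 as reported and -0.0823 with at most 6% mitochondrial UMIs, which left 403 vehicle cells. The cause was not tested. With a floor of 2 CPM the share of measured genes higher in the lowest tercile was 2.59% in treated and 4.11% in vehicle cells, and with a floor of 20 CPM it was 0.636% in vehicle cells. Leaving out barcode sequences found in both libraries, and taking cells low in both parts of the score, were chosen after seeing the data. Few vehicle UMIs, from 5 for Mgst1 upward in the lowest tercile, limit the ratios to vehicle cells. No paired analysis was possible because each group was 1 library and the numbers in the titles only name libraries.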

Other observations

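Stmn2, a marker of young neurons below 10 CPM, was chosen after its values were seen. It had 128 of 183 treated UMIs in the lowest tercile, a lowest over highest ratio of 6.71 (4.31 to 10.9). Dcx, another such marker, had 18 treated UMIs in all. The list of 6 neuron markers summed to 197, 172 and 187 CPM in the treated terciles from lowest to highest. Of its 2 measured genes 0 were 1.5-fold higher in the lowest than in the highest. Among the NRF2 targets Nqo1 stood at 3.06 CPM in the lowest tercile of vehicle cells and at 57.7 CPM in that of treated cells, with a lowest over highest ratio of 2.03 (1.86 to 2.22) in treated cells.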
